A study of Mus musculus with 6 samples.

Results

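The 42 genes described here encode the glucose transporters, the enzymes of glycolysis, the pentose phosphate pathway and the citrate cycle, and a few of their regulators. They were chosen by name, and all 42 were found among the 26286 genes of the deposited count tables. The cells were mouse regulatory T cells (Treg), the CD4+ T cells that restrain immune responses, sorted as CD4+ CD25high cells from pooled spleens and lymph nodes of C57BL/6 mice. The mice had a reporter allele in which green fluorescent protein (GFP) marks expression of Blimp-1, a transcriptional repressor encoded by Prdm1. The prefix BlimpHet stands in the sample titles of both populations. GFP+ Treg, which have the reporter switched on, were compared with GFP- Treg in 3 libraries each. In each population 1 library was made by poly(A) selection (GFP- replicate 20, GFP+ replicate 19) and 2 by an amplification protocol devised for single cells, applied here to bulk sorted RNA (GFP- replicates 2 and 5, GFP+ replicates 1 and 4). The series design calls the 3 samples of a population biologically independent, and the p-values below measure the spread between them. Where 3 values are given for a population, they follow the order of replicates 20, 2 and 5 (GFP-) or 19, 1 and 4 (GFP+), with the poly(A) library first.

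Glycolysis splits glucose into pyruvate in the cytosol. Lactate dehydrogenase turns pyruvate into lactate, which leaves the cell through monocarboxylate transporters, while pyruvate dehydrogenase feeds it into the citrate cycle of the mitochondria. Pyruvate dehydrogenase kinases switch the latter route off. The pentose phosphate pathway branches from glycolysis and yields NADPH and ribose. Activated conventional T cells are known for strong glycolysis, and Treg for a greater reliance on mitochondrial oxidation.

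The libraries held between 15224051 and 28354321 counts, of which the 42 genes took between 0.596% and 0.891%. In the single-cell protocol table the genes of chromosomes 8 and 9 were listed at 0 in all 4 libraries, as were 1090 of 1092 genes of chromosome 3. This took away Pkm, Dlat, Idh3a and Slc16a1, for which only the poly(A) pair gives values. Fbp1 had no count in any library, where 0 counts allow up to between 0.0610 and 0.380 CPM (counts scaled to library size), a limit that covers counting error only. The other 37 genes passed the filter on low counts and were tested. Treg transcripts were present in all libraries, with Foxp3 between 1097 and 2624 CPM and Cd4 between 312 and 655 CPM. The deposited single-cell protocol table lists Cd3e, Cd3d, Cd3g and Cd2 at 0, all of them on chromosomes 3 and 9. Cd247, on chromosome 1, was nearly absent there too. It had 10553, 0 and 0 counts across the GFP- libraries and 9769, 1 and 2 counts across the GFP+ libraries. CPM here are scaled by the trimmed mean of M values (TMM).

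Most of the carbon metabolism genes did not differ beyond the spread between libraries. With edgeR's quasi-likelihood test and Benjamini-Hochberg adjustment over all 10523 tested genes, 1 of the 37 rose in GFP+ Treg, the lactate exporter Slc16a3, and 1 fell, the pyruvate dehydrogenase kinase Pdk1. Of all tested genes 13.5% passed, 9.81% higher and 3.68% lower in GFP+ Treg, beside 5.41% of the 37. The difference between these shares was not tested. Their median log2 fold change was 0.17, against -0.08 for all tested genes. For 21 of the 37 the 95% interval of the log2 fold change lay inside a 2-fold change in either direction (56.8%, against 43.2% of all tested genes), and for the other 16 it reached beyond. At an unadjusted p under 0.05 there were 9 of the 37 (24.3%, against 26.9% of all tested genes). DESeq2 called 3 of the 37 higher and 4 lower, adding Hk3, Idh1, Pfkm, Pdha1 and Suclg1, where it called 18.2% of all tested genes. The median without GFP- replicate 2 was 0.069. Over all genes, the share of higher genes among those called was 72.7% with edgeR, 62.7% with DESeq2, 62.3% with the deposited log2 RPKM, 79.1% with library totals and 82.7% without the protocol covariate. It lay between 61.4% and 81.1% with each library left out. The number of all genes called, 1419, became 742 when GFP- replicate 20 was left out, 721 for GFP+ replicate 19, 907 for GFP+ replicate 1 and 2156 for GFP- replicate 5.

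**Figure D1:**
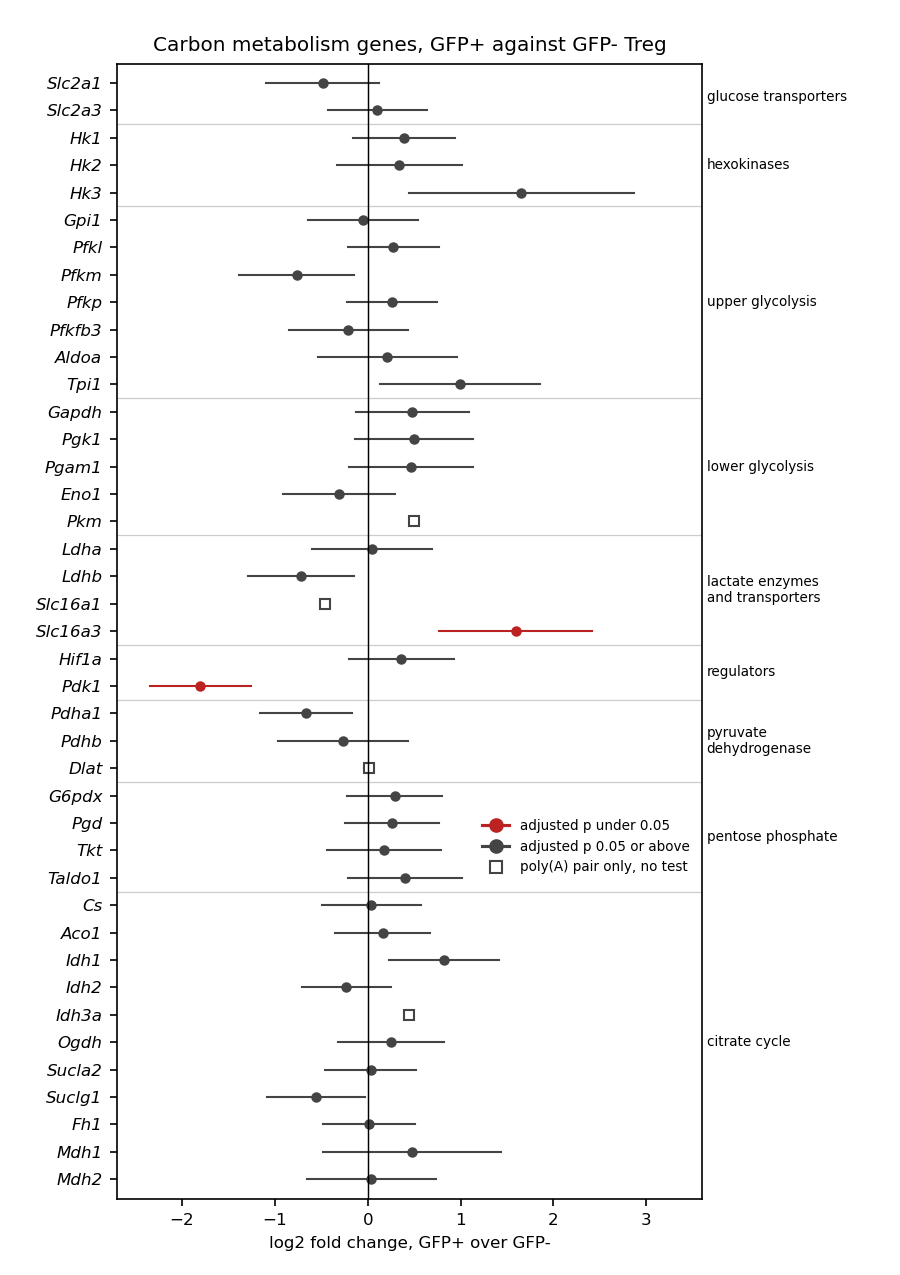
Log2 fold change of GFP+ over GFP- Treg for 41 genes, grouped by role; points with lines are the edgeR estimate and its 95% interval for the 37 tested genes, and open squares are the log2 ratio in the poly(A) pair for the 4 genes without single-cell protocol counts. Pdk1 at -1.80 and Slc16a3 at 1.59, in red, are the genes past the adjusted threshold of 0.05.

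Pdk1 (Entrez 228026) encodes a kinase that phosphorylates and inactivates pyruvate dehydrogenase, keeping pyruvate out of the citrate cycle. It stood at 72.4, 90.3 and 60.0 CPM across the GFP- libraries, and at 21.8, 22.6 and 19.5 CPM across the GFP+ libraries. All 3 GFP+ libraries lay below all 3 GFP- libraries, across both protocols. Of the 37 genes only Pdk1 did so, while Pfkp and Idh1 lay above in all 3 GFP+ libraries, and of all tested genes 13.5% were free of overlap in either direction. Pdk1 fell 3.48-fold, with a log2 fold change of -1.80 ± 0.24 (SE, n = 3 per population, adjusted p = 0.00145). It passed the threshold with each library left out in turn (adjusted p between 0.000123 and 0.0169) and in the 4 single-cell protocol libraries alone, where the log2 fold change was -1.85 (adjusted p = 0.0123). The poly(A) pair gave a log2 ratio of -1.73.

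Slc16a3 (Entrez 80879) encodes MCT4, a transporter that exports lactate from strongly glycolytic cells. It had 16.5, 2.03 and 4.94 CPM across the GFP- libraries, against 45.5, 7.69 and 13.8 CPM across the GFP+ libraries. Within each protocol the GFP+ libraries lay above the GFP- libraries, while across protocols the populations overlapped. Slc16a3 rose 3.02-fold (log2 fold change 1.59 ± 0.36, SE, n = 3 per population, adjusted p = 0.0196). The call was lost when GFP- replicate 20 (adjusted p = 0.0688), GFP+ replicate 19 (0.0764) or GFP+ replicate 4 (0.0558) was left out and in the single-cell protocol libraries alone (0.0868). The log2 fold change stayed between 1.27 and 1.89 with each library left out. Macrophage markers moved with it: all 16 tested markers of the 20 listed were higher in GFP+ Treg, their summed level went from between 70.6 and 86.7 CPM to between 1669.7 and 2446 CPM, and the other 4 were listed at 0 in the single-cell protocol libraries. The part of these cells in the rise of Slc16a3 was not tested. In such bulk samples more cells of a type and more RNA per cell cannot be told apart.

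The promoters of these 2 genes are shown because the pair moved, and that of Ldha, a lactate dehydrogenase gene that did not pass, for comparison. The sequences come from RefSeq (GRCm38.p6) and give, on the plus strand, the 250 bases before a start of transcription, while the authors' counts rest on mm9. Capitals mark ACGTG on either strand (CACGT on the printed one), the core of the element bound by hypoxia-inducible factors, which also forms part of the E-box CACGTG.
Pdk1, chr2:71872974-71873223: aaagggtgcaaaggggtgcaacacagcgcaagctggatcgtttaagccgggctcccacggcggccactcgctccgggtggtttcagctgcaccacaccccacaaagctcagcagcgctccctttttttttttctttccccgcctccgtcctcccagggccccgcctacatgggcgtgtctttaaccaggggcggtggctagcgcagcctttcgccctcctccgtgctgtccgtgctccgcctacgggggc
Slc16a3, chr11:120948817-120949066: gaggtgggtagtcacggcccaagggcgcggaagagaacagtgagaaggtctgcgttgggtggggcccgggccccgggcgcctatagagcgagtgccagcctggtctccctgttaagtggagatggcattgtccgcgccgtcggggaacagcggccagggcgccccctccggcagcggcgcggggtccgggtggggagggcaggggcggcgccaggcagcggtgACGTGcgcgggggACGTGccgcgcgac
Ldha, chr7:46845554-46845803: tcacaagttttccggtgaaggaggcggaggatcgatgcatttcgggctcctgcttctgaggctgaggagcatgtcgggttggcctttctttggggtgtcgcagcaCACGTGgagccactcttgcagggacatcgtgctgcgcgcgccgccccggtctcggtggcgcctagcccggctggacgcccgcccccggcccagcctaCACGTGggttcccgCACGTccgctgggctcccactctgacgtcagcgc

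Slc16a3 held ACGTG 2 times in its 300-base window, and neither of the 2 windows listed for Pdk1 held it. Of the 2 windows listed for Ldha, the one shown held it 5 times counting both strands, 2 E-boxes included, and the other held none. Of the 40 genes with a promoter in the table, 19 had ACGTG in at least 1 window of 250 bases before to 50 bases after a start (47.5%), against 21.8% of all 27025 genes. CACGTG, which reads the same on both strands, occurred in 6 of the 40 genes and in 8.09% of all. The windows of the 40 genes also held more CG dinucleotides, with a median of 21 against 8 for all genes, counting the richest window of each. A match describes letters only and shows no bound factor.

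The glucose transporters did not pass. Slc2a1, the transporter GLUT1 induced in activated T cells, had 59.6, 16.6 and 26.8 CPM across the GFP- libraries and 51.0, 11.6 and 16.5 CPM across the GFP+ libraries. The GFP+ value was the lower within each protocol, by a narrow margin in the single-cell libraries, and the log2 fold change was -0.48 (95% interval -1.09 to 0.13). Slc2a3, the high-affinity transporter GLUT3 of lymphocytes, had a log2 fold change of 0.10 (-0.43 to 0.64), and its populations overlapped. Slc2a1 made up 51.6% of the summed RPKM (CPM divided by the gene's length in kilobases) of the pair in GFP- replicate 20 and 49.1% in GFP+ replicate 19, but between 8.02% and 22.4% in the single-cell protocol libraries. The length used for Slc2a3 was longer in the poly(A) libraries, which raises the Slc2a1 share there.

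Hexokinases trap glucose in the cell by phosphorylation, and Treg RNA of both populations held mostly Hk1. This isoenzyme took between 92.3% and 97.6% of the RPKM of the 3 genes in all 6 libraries. Its level was 222, 49.5 and 71.2 CPM across the GFP- libraries and 262, 86.4 and 80.9 CPM across the GFP+ libraries (log2 fold change 0.39 ± 0.24, SE, adjusted p = 0.343). Hk2, the isoenzyme induced by growth signals, was low, at 10.3, 1.88 and 1.65 CPM against 11.6, 1.88 and 3.05 CPM (log2 fold change 0.34 ± 0.29). Hk3, known mainly from myeloid cells, had 157, 3 and 1 counts across the GFP- libraries and 426, 4 and 20 counts across the GFP+ libraries. Its log2 fold change of 1.65 (95% interval 0.44 to 2.86, adjusted p = 0.0801) missed the threshold with edgeR and passed with DESeq2 (adjusted p = 0.0368) and with library totals in place of TMM (0.0301). The macrophage markers described with Slc16a3 rose in the same libraries, and their part in the Hk3 value was not tested.

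In upper glycolysis none of the 7 genes passed with edgeR. The phosphofructokinases commit sugar to glycolysis. Pfkm, the muscle-type isoenzyme, had 17.2, 10.1 and 5.95 CPM across the GFP- libraries and 9.89, 5.24 and 4.42 CPM across the GFP+ libraries, lower in GFP+ within each protocol. The log2 fold change was -0.77 ± 0.27 (SE, adjusted p = 0.106), with an adjusted p of 0.0458 by DESeq2 and 0.0240 without GFP- replicate 5. Pfkl, the liver type, had 0.28 ± 0.22 on the same log2 scale. Pfkp, the platelet type, had 93.6, 93.0 and 93.4 CPM in the GFP- libraries and 101, 119.9 and 115 CPM in the GFP+ libraries. All GFP+ libraries lay above all GFP- libraries, by a small amount, and the log2 fold change was 0.26 ± 0.21 (SE, adjusted p = 0.483). As a share of the RPKM of the 3 isoenzymes, Pfkm took 9.97%, 6.87% and 3.84% in the GFP- libraries and 5.21%, 2.78% and 2.51% in the GFP+ libraries. These shares overlapped across protocols (two-sided exact permutation test, p = 0.2, n = 3 per population). Within each protocol they were lower in GFP+, and the test took no account of protocol.

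Tpi1, triose phosphate isomerase, had the largest positive log2 fold change of the 7, 0.99 ± 0.38 (SE, adjusted p = 0.131, and 0.0141 with no filter on low counts). Its CPM were 19.6, 202 and 106 across the GFP- libraries and 32.7, 465 and 204 across the GFP+ libraries, with a narrow gap between GFP- replicate 2 and GFP+ replicate 4. Gpi1, the isomerase that turns glucose phosphate into fructose phosphate, was the most abundant per length in this group in the poly(A) libraries, with a mean of 159 RPKM. It stood at 458, 664 and 785 CPM against 452, 734 and 648 CPM, and its log2 fold change was -0.05 (95% interval -0.64 to 0.54). The aldolase gene Aldoa (0.21 ± 0.33) and Pfkfb3, whose product makes the activator of phosphofructokinase (-0.21 ± 0.28), overlapped between the populations.

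The enzymes of lower glycolysis, which recover ATP, did not pass either. Gapdh had 49.5, 390.5 and 522 CPM across the GFP- libraries and 61.7, 762 and 587 CPM across the GFP+ libraries. Pgk1, phosphoglycerate kinase, had 64.5, 414 and 622 CPM against 77.7, 771 and 813 CPM. In both genes the GFP+ libraries lay above the GFP- libraries of their protocol, with log2 fold changes of 0.48 ± 0.27 and 0.50 ± 0.28 (SE, adjusted p = 0.295 and 0.294). In the 4 single-cell protocol libraries, 12 of the 37 tested genes lay wholly above and 8 wholly below in GFP+ Treg, where 22.6% and 20.3% of all tested genes did. The mutase gene Pgam1 had a log2 fold change of 0.46 (95% interval -0.21 to 1.13).

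Eno1, the main enolase, had 260.0, 1153 and 1313 CPM across the GFP- libraries and 218, 1023 and 932 CPM across the GFP+ libraries. Its GFP+ libraries lay below the GFP- libraries of their protocol, and the log2 fold change was -0.31 ± 0.26 (SE, adjusted p = 0.510). The near-identical gene Gm5506 had -0.33 ± 0.25. Reads of the pair may be split between them, and Gapdh, Pgk1, Ldha and other glycolytic genes have processed copies in the genome, so their counts are less certain. Pkm, pyruvate kinase, makes the pyruvate of glycolysis. It had 400.2 CPM in the GFP- poly(A) library and 566 CPM in the GFP+ poly(A) library, a log2 ratio of 0.50 without a replicate check. Of genes with at least 100 counts in the poly(A) pair, 15.2% differed by more than 2-fold. Of the 41 genes with counts there, 3 did so (Pdk1, Slc16a3 and Hk3), and Pkm did not.

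Neither lactate dehydrogenase subunit passed. Ldha, the subunit that favours lactate production, had 294, 1499 and 1562 CPM across the GFP- libraries and 309, 1784 and 1350 CPM across the GFP+ libraries, with overlap and a log2 fold change of 0.05 (95% interval -0.60 to 0.69). Ldhb, the subunit that favours the return to pyruvate, had 31.8, 66.6 and 111 CPM against 18.0, 59.0 and 52.8 CPM. It was lower in GFP+ Treg within each protocol, with a log2 fold change of -0.72 ± 0.25 (SE, adjusted p = 0.1005, and 0.0233 without GFP- replicate 2). The ratio of Ldhb to Ldha RPKM was 0.162, 0.0665 and 0.106 in the GFP- libraries and 0.0871, 0.0495 and 0.0585 in the GFP+ libraries (two-sided exact permutation test, p = 0.2). Within each protocol this ratio was lower in GFP+, and the test took no account of protocol. Slc16a1, the lactate transporter MCT1, had 18.1 CPM in the GFP- poly(A) library and 13.1 CPM in the GFP+ poly(A) library, a log2 ratio of -0.46 opposite in sign to that of Slc16a3 (1.47) in the same pair.

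Hif1a, the oxygen-regulated subunit of the transcription factor that drives many glycolytic genes, had 110, 82.7 and 55.6 CPM across the GFP- libraries and 133, 79.9 and 103 CPM across the GFP+ libraries. The populations overlapped, and the log2 fold change was 0.36 (95% interval -0.20 to 0.93, adjusted p = 0.395).

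Pyruvate dehydrogenase, the complex that Pdk1 inhibits, showed lower values for its catalytic subunit gene Pdha1. Pdha1 had 81.2, 199 and 178 CPM across the GFP- libraries and 55.9, 110 and 118 CPM across the GFP+ libraries, without overlap inside a protocol. The log2 fold change of -0.67 ± 0.22 (SE) had an adjusted p of 0.0855 with edgeR and 0.00736 with DESeq2. Pdhb, the partner subunit, had -0.26 ± 0.31 and overlapped. Dlat, the acetyltransferase subunit, stood at 17.5 CPM in the GFP- poly(A) library and 17.6 CPM in the GFP+ poly(A) library. The ratio of Pdk1 to Pdha1 RPKM was 0.479, 0.417 and 0.3103 in the GFP- libraries and 0.210, 0.189 and 0.153 in the GFP+ libraries. Those values did not overlap (two-sided exact permutation test, p = 0.1, adjusted p = 0.5 over the 10 ratios and shares computed). This p is the smallest that 3 against 3 libraries can give. The gap, and the p with it, rests on the length of Pdk1, which was shorter for the single-cell protocol than for poly(A). The length of Pdha1 was the same. With 1 length for Pdk1, GFP+ replicate 19 would lie above GFP- replicate 5 (Pdk1 at 21.8 and 60.0 CPM, Pdha1 at 55.9 and 178 CPM). Within each protocol the GFP+ ratios were the lower.

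**Figure D2:**
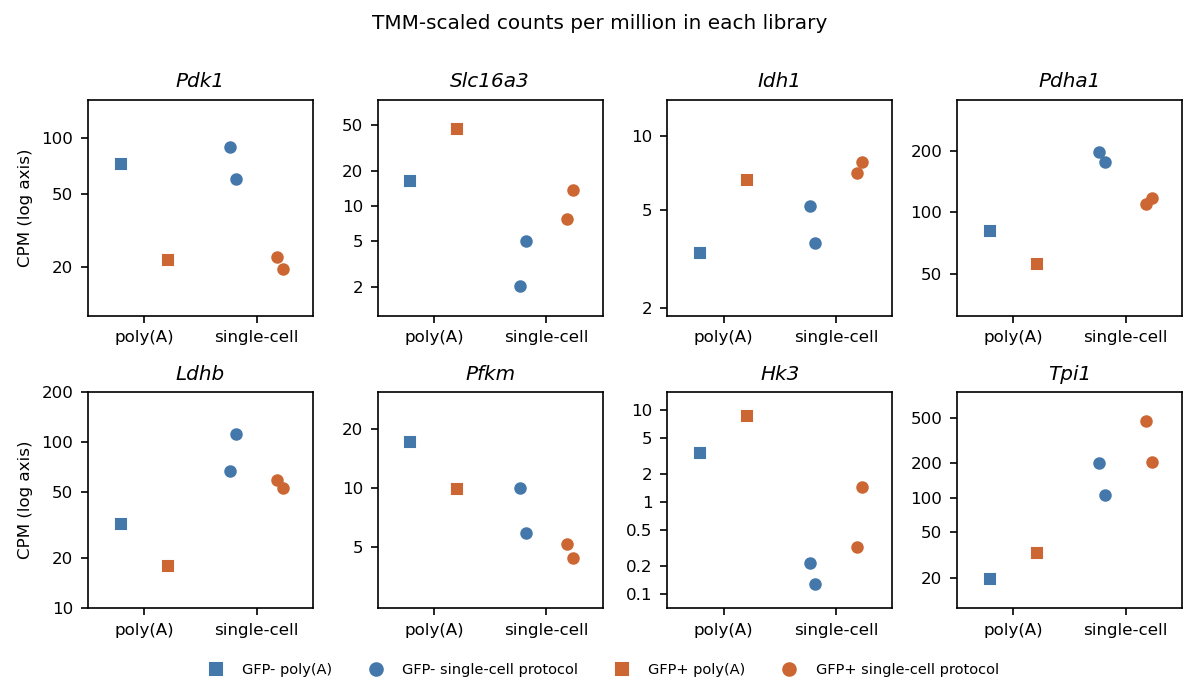
TMM-scaled CPM of 8 genes in each library on a log axis, with poly(A) libraries as squares and single-cell protocol libraries as circles, GFP- in blue and GFP+ in orange. GFP+ libraries lie below GFP- libraries within a protocol for Pdk1, Pdha1, Ldhb and Pfkm and above for Slc16a3, Idh1, Hk3 and Tpi1, and Pdk1 and Slc16a3 passed the adjusted threshold.

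The pentose phosphate genes had log2 fold changes between 0.17 and 0.40, all 4 positive and none past the threshold. Taldo1, the transaldolase of the branch that rebuilds sugars, was the highest per length in the group, at a mean of 84.9 RPKM in the poly(A) libraries. It had 100.1, 446 and 570.0 CPM across the GFP- libraries and 117, 819 and 609 CPM across the GFP+ libraries, a log2 fold change of 0.40 (95% interval -0.22 to 1.02, adjusted p = 0.391). G6pdx, the enzyme that opens the pathway and yields NADPH, had 0.29 (-0.22 to 0.80). Pgd, which yields further NADPH, had 0.26 ± 0.22, and the transketolase gene Tkt 0.17 ± 0.27. The 95% intervals of G6pdx, Pgd and Tkt excluded a 2-fold change.

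Of the citrate cycle genes none of 10 tested passed with edgeR, and their median log2 fold change was 0.04. Cs, citrate synthase, which opens the cycle, had 153, 208 and 239 CPM across the GFP- libraries and 154, 209 and 254 CPM across the GFP+ libraries (log2 fold change 0.04, 95% interval -0.50 to 0.57). Fh1, fumarate hydratase, had 0.01 (-0.48 to 0.51) and Sucla2, a subunit of succinate-CoA ligase, 0.03 (-0.46 to 0.52). These intervals exclude a 2-fold change. The ligase subunit shared by both forms of the enzyme, Suclg1, had 37.4, 396 and 407 CPM against 27.9, 276 and 247 CPM, with GFP+ lower inside each protocol (log2 fold change -0.55 ± 0.23, adjusted p = 0.167 with edgeR and 0.0442 with DESeq2).

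The isocitrate dehydrogenases Idh1 and Idh2 both use NADP, Idh1 in the cytosol and peroxisomes and Idh2 in mitochondria. Idh1 had 3.35, 5.22 and 3.67 CPM across the GFP- libraries and 6.61, 7.12 and 7.83 CPM across the GFP+ libraries. All GFP+ libraries lay above all GFP- libraries, and the log2 fold change was 0.82 ± 0.26 (SE, adjusted p = 0.0752 with edgeR and 0.0384 with DESeq2). Idh2 had 23.5, 37.8 and 29.6 CPM against 22.6, 27.3 and 26.9 CPM (log2 fold change -0.23, 95% interval -0.71 to 0.25). The ratio of Idh1 to Idh2 RPKM was 0.0993, 0.0963 and 0.0866 in the GFP- libraries and 0.204, 0.182 and 0.203 in the GFP+ libraries. That is 0.0941 ± 0.00667 against 0.196 ± 0.0126 (SD, n = 3 per population), 2.09-fold higher in GFP+ Treg. The exact permutation test over samples gave a two-sided p = 0.1, the smallest possible (adjusted p = 0.5 over 10 quantities). Idh3a, a subunit of the NAD-dependent enzyme of the cycle, had 29.5 CPM in the GFP- poly(A) library and 40.1 CPM in the GFP+ poly(A) library, a log2 ratio of 0.44.

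**Figure D3:**
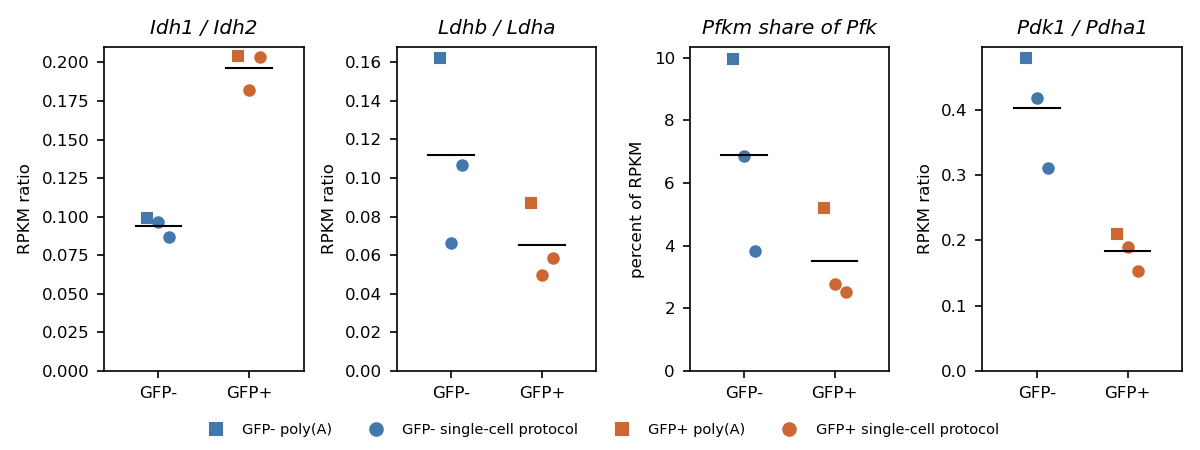
Ratios or shares of RPKM in each library for Idh1 over Idh2, Ldhb over Ldha, Pfkm among the phosphofructokinases and Pdk1 over Pdha1, with a bar at the mean of the 3 libraries of a population, squares for poly(A) and circles for single-cell protocol libraries. The Idh1 to Idh2 ratio lies between 0.0866 and 0.0993 in GFP- and between 0.182 and 0.204 in GFP+ Treg. The Pdk1 to Pdha1 ratio is lower in GFP+ within each protocol. Its lack of overlap across protocols rests on the differing Pdk1 lengths given for them.

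Malate dehydrogenase closes the cycle, and Mdh2, its mitochondrial form, had the highest level per length of all tested genes of the set, at a mean of 222 RPKM in the poly(A) and 1108 RPKM in the single-cell protocol libraries. Mdh2 had 280.0, 1068 and 1744 CPM across the GFP- libraries and 290.3, 1328 and 1542 CPM across the GFP+ libraries (log2 fold change 0.04 ± 0.30). The cytosolic Mdh1 had 104, 1196 and 542 CPM against 120.4, 1843 and 801 CPM (log2 fold change 0.47 ± 0.42). Aco1, the cytosolic aconitase that also acts as an iron sensor, had 0.16 ± 0.23 and Ogdh, the oxoglutarate dehydrogenase, 0.25 ± 0.25. Over all 6 libraries the populations overlapped in each of these 4 genes. Fbp1, the gluconeogenic enzyme that opposes phosphofructokinase, had no counts.

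Whether the population difference depended on the protocol was tested as well. A test of the interaction between population and protocol (edgeR, 2 residual degrees of freedom) called 0 of the 37 genes and 0 of all 10523. At an unadjusted p under 0.05 it gave 0 of the 37 and 24 of all genes (0.228%). With 1 poly(A) library per population the test could miss such a dependence, so its lack of calls does not decide the question. In the 4 single-cell protocol libraries alone Pdk1 was the only call among 36 tested members, where 6.95% of all tested genes passed.

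The protocol itself went with large differences in level. Between single-cell and poly(A) libraries 18 of the 37 genes were higher and 10 lower (edgeR, Benjamini-Hochberg), against 30.5% and 34.6% of all tested genes. Gapdh had the highest of these log2 differences, 3.33, and Hk3 the lowest, -3.56. Tpi1 (3.16), Pgk1 (3.17), Mdh1 (3.26) and Suclg1 (3.32) stood with Gapdh, and Hk2 (-2.37), Slc16a3 (-2.18) and Hk1 (-1.77) with Hk3. Across the 37 genes the difference ran against gene length (Spearman's rho -0.807, n = 37 genes measured in the same libraries). It did so across all tested genes as well (rho -0.623). Levels of different genes are therefore ranked by RPKM only within a protocol. The ratios and shares above pool both protocols, so their tests also carry the spread between protocols. In the poly(A) libraries Mdh2 (222 RPKM), Pkm (220.4), Gpi1 (159) and Ldha (156) led the set.

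**Figure D4:**
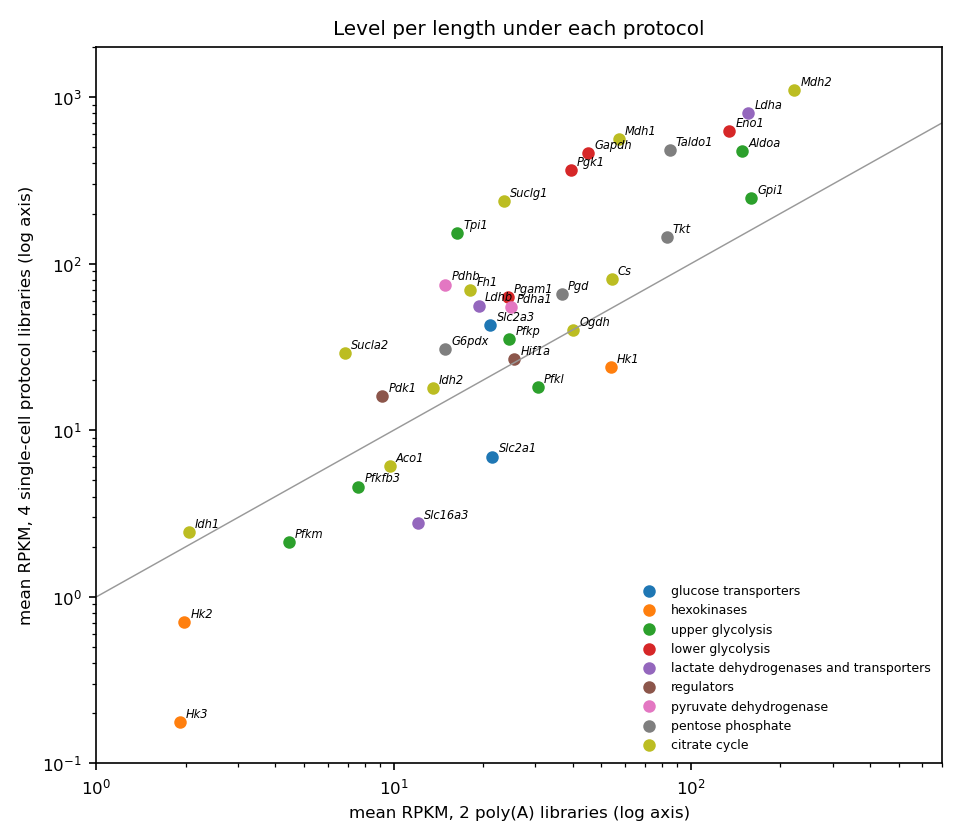
Mean RPKM of each gene in the 2 poly(A) libraries against that in the 4 single-cell protocol libraries, both axes logarithmic, coloured by role, with a line of equal values; the 4 genes without single-cell protocol counts and Fbp1 are left out. Mdh2, at 222 and 1108 RPKM, is the highest on both axes, while Gapdh, Pgk1, Tpi1 and Suclg1 lie far above the line and Hk3, Slc16a3 and Slc2a1 below it.

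Other genes of the same pathways and their regulators were taken from lists of 74 genes. Of 15 tested further genes of glycolysis 2 rose and 1 fell, where 13.5% of all tested genes passed in either direction. Eno3, the muscle-type enolase, had 26.7, 60.4 and 73.8 CPM across the GFP- libraries and 5.33, 5.32 and 6.53 CPM across the GFP+ libraries. All GFP+ libraries lay below all GFP- libraries, and Eno3 fell by 3.09 ± 0.31 on the log2 scale (SE, adjusted p = 0.000364), with each library left out as well. Aldoc, a further aldolase, rose by a log2 fold change of 1.27 ± 0.27 (adjusted p = 0.0148), a call lost without GFP- replicate 20 (0.106), GFP+ replicate 19 (0.105) or GFP+ replicate 1 (0.0823). Gpd1, which links glycolysis to glycerol, rose by 3.09 ± 0.51 (adjusted p = 0.00461) from at most 0.630 CPM to between 1.23 and 4.05 CPM, a call lost with the deposited log2 RPKM (adjusted p = 0.112).

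Of 8 further pentose phosphate genes Tktl1, a relative of transketolase, rose (2.39 ± 0.51, adjusted p = 0.0151, and 0.0627 without GFP+ replicate 1). None of 3 gluconeogenesis, 7 pyruvate entry or 13 further citrate cycle genes passed with edgeR, with 1, 1 and 2 of them at an unadjusted p under 0.05. The pyruvate entry genes Pdk2 (-0.58 ± 0.37) and Pdk3 (0.10 ± 0.25), the other kinases of pyruvate dehydrogenase with enough counts, did not pass beside the fall of Pdk1. The list's median was -0.22.

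Among 7 tested regulators of glycolysis 1 rose and 1 fell, again beside 13.5% of all tested genes in either direction. Myc, the transcription factor of growth that raises glycolytic genes in activated T cells, had 114, 81.7 and 89.6 CPM across the GFP- libraries and 46.0, 13.8 and 24.9 CPM across the GFP+ libraries. It fell by 1.86 ± 0.30 on the log2 scale (SE, adjusted p = 0.0041), without overlap over all 6 libraries. Egln3, a prolyl hydroxylase that marks hypoxia-inducible factors for degradation and is itself a target of theirs, had 4.43, 2.17 and 2.91 CPM against 21.4, 13.3 and 9.43 CPM. It rose by 2.21 ± 0.27 (adjusted p = 0.000937), again without overlap. Both passed with each library left out (largest adjusted p 0.0203 and 0.0121).

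Markers of other cells and states moved in the same libraries, where 9.81% of all tested genes rose and 3.68% fell. Of 17 tested proliferation genes 12 rose and none fell, with summed levels between 722 and 952 CPM in GFP- and between 1424 and 2224 CPM in GFP+ libraries. Macrophage markers rose by a median log2 fold change of 5.78. Of 4 tested erythroid markers 2 rose, with sums between 35.2 and 593 CPM in GFP- and between 103 and 1809 CPM in GFP+ libraries. B and plasma cell markers had 1 higher of 8 tested, Sdc1, and sums between 696 and 5662 CPM against 1189 and 14175 CPM. Most of these sums was Ighm alone, with between 626 and 5518 CPM in GFP- and between 1079 and 13950 CPM in GFP+ libraries. Ighm did not pass (edgeR, adjusted p = 0.131). All 8 tested B and plasma cell markers had positive log2 fold changes (median 0.72). Of them 5 had an unadjusted p under 0.05 (edgeR), where 26.9% of all tested genes did. Of 3 tested monocyte and neutrophil markers 1 rose, Itgam. Among 5 tested markers of CD8 T and NK cells 2 fell and none rose, Cd8a (-0.99 ± 0.23, adjusted p = 0.022) and Ncr1 (-1.92 ± 0.45, adjusted p = 0.0219). Of 5 tested Treg markers Ctla4, an inhibitory receptor, rose (2.09 ± 0.32, adjusted p = 0.00305). At an unadjusted p under 0.05 (edgeR) there were 3 of the 5, Ctla4 and Ikzf2 higher and Il2ra lower. Ikzf2 had 0.60 ± 0.23 (adjusted p = 0.126) and Il2ra -0.64 ± 0.23 (adjusted p = 0.111). Il2ra was lower in GFP+ Treg within each protocol. Of 5 tested general T cell markers none passed (edgeR, 0 also at an unadjusted p under 0.05). Their part in the values of the carbon metabolism genes was not tested.

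**Figure D5:**
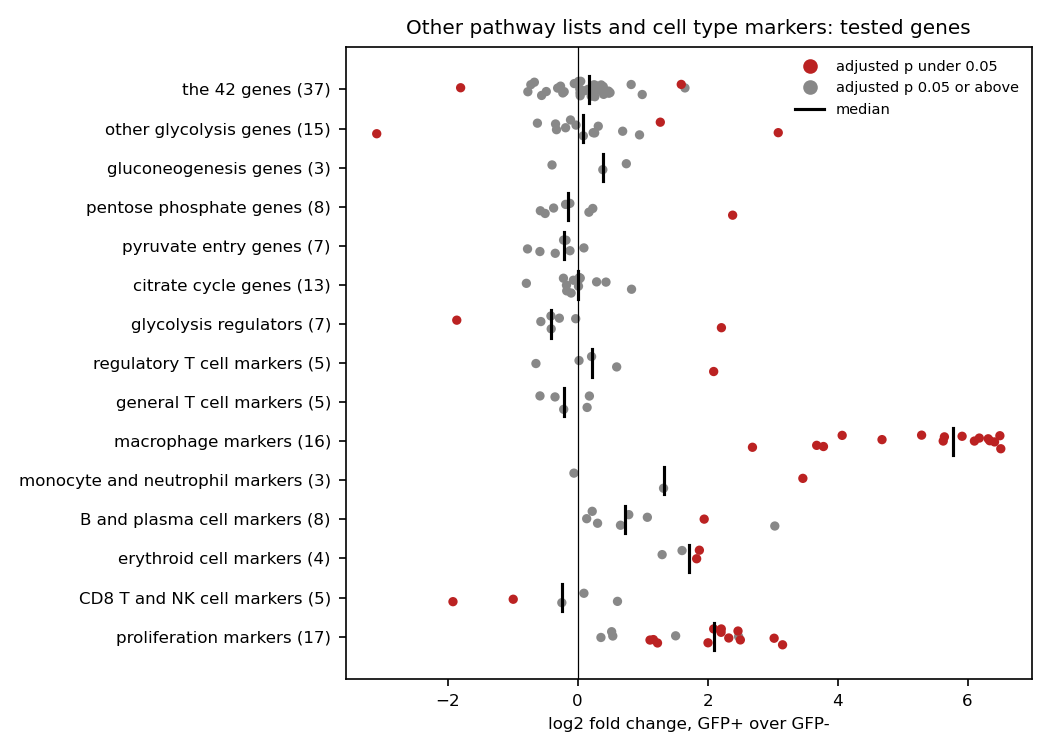
Log2 fold change of GFP+ over GFP- Treg for each tested gene of the 42 genes, of the other pathway lists and of the cell type marker lists, with the number tested in brackets, red points past the adjusted threshold of 0.05 and a bar at each list's median. The 42 genes centre at 0.17 and the other pathway lists between -0.41 for the regulators and 0.39 for gluconeogenesis, while macrophage markers centre at 5.78 and proliferation markers at 2.09.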

How the data were processed

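RNA sequencing of 6 libraries was analysed. The authors' deposited counts are raw and listed by Entrez number, with a separate table for each protocol. Subread, featureCounts, edgeR and mm9 are named per the submitters' processing notes, with versions and strand use not given in the sources used here. Per the file headers, the tables give gene lengths, of which 30.9% (8116 genes) are exactly 3000 bases in the single-cell protocol table. The poly(A) table gives 8113 genes a length above 3000 bases. RPKM of long genes thus rest on a shorter length in the single-cell protocol libraries, as for Hk1, Hk2, Pdk1, Slc2a3 and Ogdh. The authors also deposited log2 RPKM per library, used only as an alternative.

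Counts were fitted with edgeR 4.0.16 (limma 3.58.1, R 4.3.3) after filterByExpr with population as group and TMM scaling (factors 0.519 to 2.06), with protocol as covariate and 3 residual degrees of freedom. The fitting was tested on simulated data. Adjusted p-values are Benjamini-Hochberg over 10523 genes, threshold 0.05. Standard errors and intervals derive from the F statistic. RPKM use TMM-scaled CPM and the length in each table. Genes without symbols (540) held 0.604% to 4.53% of counts. DESeq2 1.42.0, limma-voom, other scalings and filters, no covariate and omitted libraries were alternatives. Libraries of 1 population differed beyond sampling noise (chi-square at least 88.9 per degree of freedom). Chromosomes come from RefSeq GRCm38 by Entrez number.

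The 42 genes and the gene lists were chosen with earlier results of these data known. By rule, library values are given for those past the threshold, for the highest mean RPKM of each role and for isoenzymes, and from the other lists for those past the threshold. Further genes, the ratios and shares, the promoters shown and the alternatives for other lists were chosen after their values were seen.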

Additional observations from a re-analysis of the deposited data

How the results depend on the processing

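Pdk1 and Slc16a3 kept their direction under every alternative run, and no tested gene of the set reversed a call. Slc16a3 rose and Pdk1 fell with limma-voom, relative log expression scaling, the deposited log2 RPKM, DESeq2, library totals and no filter. Without the protocol covariate neither passed, leaving 0 higher and 0 lower. The genes higher numbered 3 with DESeq2, 2 with library totals and 3 with no filter on low counts, settings that called 18.2%, 12.8% and 11.8% of all genes, and 0 in the single-cell protocol libraries alone, and those lower 4 with DESeq2. With each library left out in turn they ranged from 0 to 1 higher and from 1 to 2 lower. All genes called numbered 2500 with no filter, 139 without the covariate, 711 in the single-cell protocol libraries alone, and from 721 to 2156 with each library left out. The median log2 fold change of the tested genes was 0.31 with library totals and 0.069 to 0.21 with each library left out. The median of all genes was -0.08 with TMM, -0.11 with relative log expression scaling and 0.01 with library totals, so the medians above are to be read against it. No paired analysis was possible because the populations share no replicate number and no label pairs their libraries. Of the called genes of the other pathway lists, those besides Eno3 were lost without the covariate. Depth limited Hk3, with 1 to 20 counts in the single-cell protocol libraries.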
